A study of Homo sapiens with 24 samples.

Results

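Amino acid transporter genes were followed in A549 cells, an established human line from a lung adenocarcinoma, during the first hours of exposure to dexamethasone (dex), a synthetic glucocorticoid (GC) that activates the glucocorticoid receptor (GR). The genes were taken by name from the GENCODE annotation: all protein-coding genes whose symbol begins with SLC1A, SLC3A, SLC6A, SLC7A, SLC36A, SLC38A or SLC43A, apart from 2 genes that are not analysed here and SLC6A14, for which no transcript was matched. This gave 57 genes among 33127 genes with a matched transcript, of which 19266 are protein coding. Of the 57, 56 encode carriers or their partner chains, and 1, SLC7A6OS, was taken in by its name alone because it lies on the opposite strand of SLC7A6. The rule used no measured value.

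The cells received 100 nM dex dissolved in ethanol (EtOH) or the same volume of EtOH, 0.02% of the medium, and their poly-A RNA was taken for sequencing at 6 time points, every 2 hours from 1 to 11 hours. Each treatment and time point had 2 libraries that the labels call biological replicates, which made 24 libraries in 12 groups, and every dex group had its own EtOH group of the same time. All groups shared the same line, in F-12K medium with serum and antibiotics, so the results describe 1 cell line. No label states separate cultures, and the treatment text of every library gives 1 hour while the duration label runs from 1 to 11 hours, which was the one used. Libraries held 7813353 to 13619043 counted reads with EtOH (median 10112359.5) and 6708864 to 13748598 with dex (median 9975978.5).

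Epithelial markers were present at unequal levels and moved with dex. The keratin genes KRT8 and KRT18 had medians of 2041 and 2416 CPM (counts per 1e6 counts of the normalized library) over the EtOH libraries and 4072 and 4268 over the dex libraries. The cadherin gene CDH1 had 36.8 and 40.6, KRT19 15.6 and 11.3, and EPCAM 9.63 and 6.30. Over the 6 time points KRT8, KRT18 and CDH1 were called higher (mean log2 fold changes of 0.94, 0.71 and 0.25) and KRT19 and EPCAM lower (-0.38 and -0.55), and the part of these shifts in the changes of the carriers was not tested. Of the leukocyte genes, PTPRC and CD3E had 10 and 0 counts in all libraries together, whereas CD14 had 482 (7 to 36 per library). The surfactant gene SFTPC, which defines the alveolar type II cell that A549 is often used to stand for, had 4 counts in all. The fibroblast gene COL1A1 had a median of 17.4 CPM with EtOH and 11.3 with dex and a mean log2 fold change of -0.54 (edgeR adjusted p = 0.000176), being called higher at 3 hours (0.57) and lower at 5, 7 and 9 hours, whereas DCN and PDGFRB, other genes of that cell type, had 0.125 and 0.139 over the 24 libraries. Targets of GCs were read as a check of the dex labels. TSC22D3, which encodes the GC-induced leucine zipper protein, stood at 7.54 and 10.3 CPM in the EtOH libraries of 1 hour and at 80.3 and 90.6 in the dex libraries, and FKBP5, a co-chaperone of GR, at 22.2 and 22.8 against 238 and 230 CPM at 3 hours. Of 7 such targets with enough counts, 6 were higher with dex at 1 hour and 7 at each later time.

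Amino acids cross the cell membrane mainly through carriers. Carriers of the SLC7 family that move large neutral amino acids, or export cationic ones in exchange for neutral ones, are light chains that reach the membrane bound to the heavy chain SLC3A2 (CD98), and SLC7A9 binds the related heavy chain SLC3A1. Sodium-coupled carriers (SLC38A1, SLC38A2 and much of the SLC6 family) and exchangers (SLC1A4, SLC1A5) load the cell with small neutral amino acids, which the light chains can then trade for leucine and other essential ones. Several carriers also sit on the lysosome, where SLC38A9 and SLC36A1 take part in the sensing of amino acids by the kinase complex mTORC1. In many cells, shortage of amino acids raises carrier genes through the transcription factor ATF4, and GR acts on its own targets through the GC response element in DNA.

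Promoters bear on which of these factors could act near a start site, so windows of 250 bases upstream of annotated start sites (RefSeq, GRCh38.p14) were searched on both strands. Of the 57 genes, 43 had a window, with 65 windows between them. The full palindromic GC response element, TGTTCT after a short spacer from its own reverse complement, was found in 0 of the 65, against 0.00285% of all 35116 windows. The single part TGTTCT was in 5 (7.69%, against 12.4% of all windows), the amino acid response element TGATGNAAN through which ATF4 acts was in 2 (3.08%, against 3.13%), and the E-box CACGTG was in 9 (13.8%, against 6.34%). TGTTCT is part of the full element, so a window with the full element would count under both. A match only says that these letters are there, and a missing match says nothing about sites outside the window.
The windows of SLC7A7 (chr14:22819812-22820041, minus strand) and SLC7A8 (chr14:23155459-23155708, minus strand), which were higher with dex in the counts described next, and of SLC1A4 (chr2:64989149-64989398, plus strand) and SLC36A4 (chr11:93197992-93198241, minus strand), which were lower, are shown because they let the sequences upstream of both kinds of gene be read side by side. SLC7A5 (chr16:87869508-87869757, minus strand), the most counted gene, is shown for its E-box, the only match in these 5 sequences and the part in capitals. Each is given 5′ to 3′ on the gene's strand, and only the part outside annotated exons is printed.
SLC7A7: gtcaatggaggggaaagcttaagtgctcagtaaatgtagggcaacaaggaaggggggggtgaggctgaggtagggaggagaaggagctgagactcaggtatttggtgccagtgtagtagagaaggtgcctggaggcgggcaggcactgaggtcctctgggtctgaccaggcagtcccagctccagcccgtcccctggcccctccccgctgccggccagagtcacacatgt
SLC7A8: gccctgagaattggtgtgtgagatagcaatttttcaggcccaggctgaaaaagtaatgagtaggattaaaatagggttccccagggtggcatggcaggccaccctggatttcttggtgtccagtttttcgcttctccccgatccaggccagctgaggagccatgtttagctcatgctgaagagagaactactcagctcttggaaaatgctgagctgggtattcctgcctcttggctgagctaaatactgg
SLC1A4: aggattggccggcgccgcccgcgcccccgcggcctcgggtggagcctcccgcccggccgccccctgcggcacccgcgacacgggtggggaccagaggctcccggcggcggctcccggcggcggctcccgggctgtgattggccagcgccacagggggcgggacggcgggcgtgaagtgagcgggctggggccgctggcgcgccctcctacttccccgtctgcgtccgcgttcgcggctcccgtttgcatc
SLC36A4: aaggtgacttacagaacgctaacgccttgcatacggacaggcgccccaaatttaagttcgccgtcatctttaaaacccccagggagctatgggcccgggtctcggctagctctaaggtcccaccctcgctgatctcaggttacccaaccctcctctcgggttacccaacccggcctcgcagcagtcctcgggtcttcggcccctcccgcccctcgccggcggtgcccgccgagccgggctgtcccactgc
SLC7A5: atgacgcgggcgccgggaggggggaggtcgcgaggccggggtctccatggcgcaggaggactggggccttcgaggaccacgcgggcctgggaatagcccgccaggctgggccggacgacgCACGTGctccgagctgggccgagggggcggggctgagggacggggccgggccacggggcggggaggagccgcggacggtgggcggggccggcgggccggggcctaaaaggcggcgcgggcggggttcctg
In the windows shown, SLC7A7 and SLC7A8 hold 4 and 2 CG dinucleotides in 230 and 250 bases, whereas SLC1A4, SLC36A4 and SLC7A5 hold 38, 21 and 34 in 250 bases each. Their share of G and C is 60.9% and 50% against 79.6%, 64% and 79.6%. This order depends on the window: another window of SLC1A4 has 12 CG dinucleotides and 48.4% G and C, and another of SLC7A8 has 16 and 61.6%. In other windows that overlap exons, and that are not shown, SLC7A7 holds TGTTCT (on the minus strand of the window, as AGAACA) 73 bases before a start site and an E-box 225 bases before one, and SLC7A8 an E-box 129 bases before one. In such windows SLC1A5 holds an amino acid response element 97 bases before a start site and an E-box 50 bases before a different one.

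Expression of the family rested on few genes. In all 24 libraries the 57 genes held 882336 counts, of which SLC7A5, SLC38A2, SLC38A1 and SLC3A2 held 81.3%. Of the others, 5 had 0 counts in every library (SLC7A3, SLC7A4, SLC6A5, SLC6A18 and SLC38A8), and 26 of the 57, those 5 included, had under 100 counts in the 24 libraries together. The median library held 10109393.5 counts. A count of 0 in a single library still allows an expected count of up to 3 in that library. For the 5 genes with 0 in every library, the same bound of 3 holds for the 24 libraries together. Such genes were not detected at this depth and are not shown to be absent. The filter on low counts kept 30 of the 57 for testing, and every count of tested genes below refers to those 30. The share of all counts that fell on the 57 genes had a median of 0.377% over the 12 EtOH libraries and 0.344% over the 12 dex libraries, with ranges of 0.343% to 0.398% and 0.327% to 0.366% that overlap.

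To compare genes with each other, counts were divided by transcript length and scaled to a sum of 1e6 in every library. On this scale SLC7A5 (LAT1), the light chain that brings in leucine and other large neutral amino acids, had the highest level with EtOH, 629 ± 40.8 (SD, n = 12 libraries). Its heavy chain SLC3A2 followed at 483 ± 42.5 and SLC38A2 (SNAT2), a sodium-coupled carrier of small neutral amino acids, at 396 ± 53.3. The lowest SLC7A5 library, at 554, lay above the highest SLC3A2 library, at 536, while SLC3A2 (406 to 536) and SLC38A2 (285 to 472) overlapped. SLC38A1 (SNAT1) stood at 172 ± 17.7 and SLC1A5 (ASCT2), the exchanger known for glutamine uptake, at 154 ± 15.6, with ranges that overlap. A gap separated these 5 from the sixth gene, SLC7A7 (y+LAT1), at 39.6 ± 3.62, whose highest EtOH library reached 44.1 against 128 for the lowest SLC38A1 library. From there the levels declined through SLC38A10 (34.5), SLC7A6 (33.8), SLC7A1 (33.0), SLC38A6 (29.6) and SLC36A4 (29.4), neighbours whose libraries all overlap, to SLC1A4 (11.0 ± 0.918) and SLC6A15 (5.59 ± 1.02). The lowest EtOH library of SLC3A1, the gene just above SLC1A4, was at 13.0 and the highest of SLC1A4 at 12.3. The levels depend on how reads were shared among transcripts. Counted on the most counted transcript alone, SLC7A5 stood at 311, SLC38A2 at 174, SLC38A1 at 71.1, SLC3A2 at 50.1 and SLC1A5 at 36.9. On this measure SLC3A2 lay below SLC38A2 and SLC38A1. The sixth gene was then SLC7A1 at 25.5, so the gap narrowed, and SLC7A7 stood lower, at 4.57. SLC6A6, plotted with the others, was counted only on 2 short transcripts of 284 and 458 bases, and its level may miss its main transcript.

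**Figure D1:**
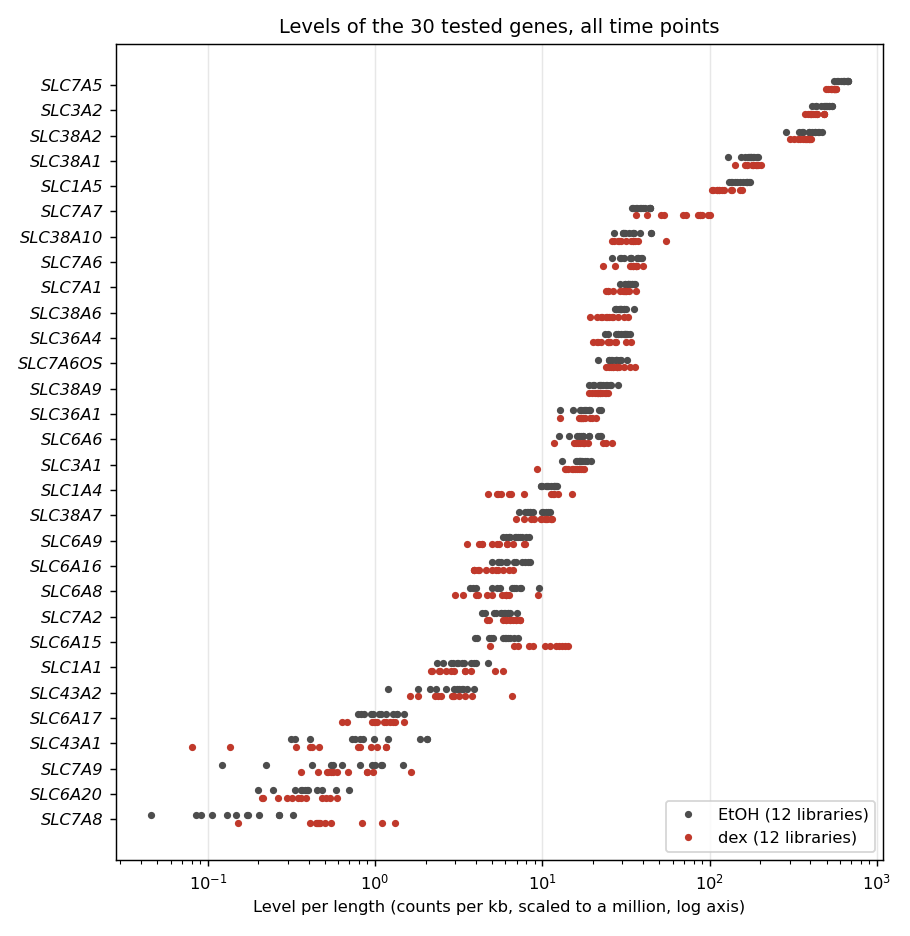
Level per length (counts per kilobase of transcript, scaled to a sum of 1e6 in each library, log axis) of the 30 tested genes in rows, ordered by their EtOH mean. Each grey point is 1 of 12 EtOH libraries and each red point 1 of 12 dex libraries of any time; SLC7A5 leads at 629 with EtOH, and the red points of SLC7A7 and SLC6A15 reach to the right of all their grey points.

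The first question was whether dex changed the family at each time point against EtOH cells of the same time. A gene was called where the adjusted p was at most 0.1 over all 15337 genes tested in edgeR, with each time point fitted by itself. At 1 hour 0 of the 30 genes were called, against 1.06% of all genes (0.639% higher and 0.417% lower), and 0 had an unadjusted p under 0.05. DESeq2 also called 0. Leaving out the second dex library of 1 hour gave 1 call. At 3 hours the light chain SLC7A7 alone was higher, 1 of 30 against 14.1% of all genes (8.42% higher and 5.65% lower), and without the first EtOH or the first dex library of that time 0 were called.
At 5 hours 13 of the 30 were called, 5 higher and 8 lower, against 25.0% of all genes (12.4% higher and 12.6% lower). The genes counted as higher at 5, 7 and 9 hours include SLC7A8, which passed the filter on low counts only through dex libraries. Without the second EtOH or the second dex library 8 were called, and DESeq2 also called 8. In bulk RNA fewer cells with a transcript and less of it per cell cannot be told apart. At 7 hours 8 were called, 3 higher and 5 lower, against 28.2% of all genes (14.7% higher and 13.5% lower), and 5 without the second dex library. At 9 hours 9 were called, 5 higher and 4 lower, against 19.8% of all genes (10.8% higher and 8.96% lower). Without the first EtOH library 14 were called, and without either dex library 4. At 11 hours only SLC7A7 and SLC6A15 were called, both higher, against 9.12% of all genes (5.80% higher and 3.33% lower). Without either EtOH library 1 was called, and without the first or the second dex library 7 or 8. Among the 12 pairs of replicates the 2 dex libraries of 11 hours differed most (chi-square per gene 16.6), and the biological coefficient of variation was 12.7% at that time against 6.49% at 7 hours.

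The median log2 fold change of the 30 genes was -0.02 at 5 hours, -0.06 at 7 hours and -0.06 at 9 hours, where that of all genes was between -0.0059 and 0.0103. These medians are over genes called in both directions. By the mean effect over the 6 time points 4 of the 30 were higher and 9 lower, against 16.9% and 18.9% of all genes. The 4 include SLC7A8, which passed the filter on low counts only through dex libraries. At 1 or more times 18 of the 30 genes were called, against 44.5% of all genes. Of these 7 were higher and 11 lower, against 23.3% and 22.5% of all genes (SLC7A8 is among the 7), and the other 12 were called at no time, as the heat map of fold changes shows. Several of the called genes share exon bases with a gene on the opposite strand, among them SLC1A5 (AC008622.2), SLC38A6 (TRMT5), SLC6A8 (PNCK) and SLC6A9 (CCDC24), and since the use of strand in counting is not stated their counts may hold reads of these neighbours.

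**Figure D2:**
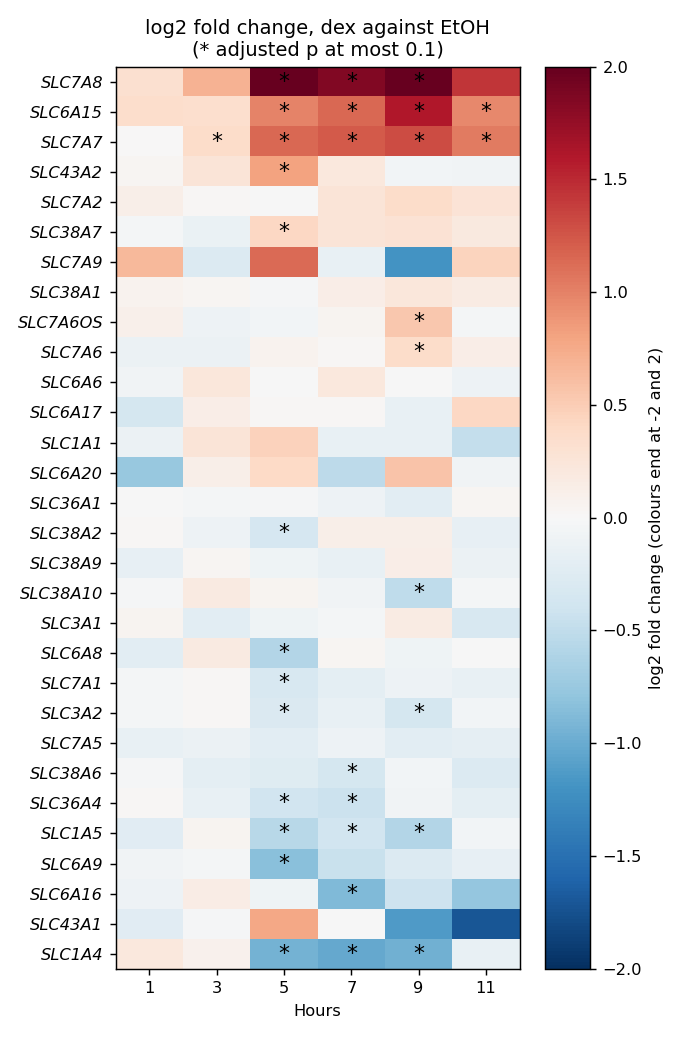
log2 fold change of dex against EtOH (colour, limited to -2 and 2) for the 30 tested genes in rows, ordered by their mean over time, at 6 time points in columns, with a star where the edgeR adjusted p was at most 0.1. Stars fill the SLC7A7 row from 3 to 11 hours and the SLC6A15 row from 5 to 11 hours, and the blue stars lie between 5 and 9 hours.

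Among light chains, SLC7A7 had the most calls. It encodes y+LAT1, which with SLC3A2 exports arginine and lysine in exchange for neutral amino acids and sodium, and whose loss causes lysinuric protein intolerance. Its 12 EtOH libraries lay between 35.7 and 45.5 CPM with a median of 39.8. With dex the pairs of libraries were at 43.1 and 38.4 at 1 hour, 56.3 and 54.0 at 3 hours, 97.4 and 96.4 at 5 hours, 100.2 and 88.9 at 7 hours, 91.3 and 91.2 at 9 hours, and 75.8 and 71.3 at 11 hours. From 3 hours onward all 10 dex libraries were above all EtOH libraries. The log2 fold change was 0.36 ± 0.12 (SE) at 3 hours (edgeR adjusted p = 0.0461), 1.16 ± 0.11 at 5 hours (4.55e-11), 1.23 ± 0.10 at 7 hours (1.7e-11), 1.3 ± 0.12 at 9 hours (6.96e-06) and 1.05 ± 0.15 at 11 hours (0.000545). The call at 3 hours was lost in 5 of 12 alternatives. Among them were DESeq2 (adjusted p = 0.177), the most counted transcript and the replicate number as a block (0.108). The calls from 5 to 11 hours held under every alternative run. The size of the response differed between time points (edgeR, joint test of the 5 later times against 1 hour, adjusted p = 1.26e-06).

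SLC7A8 (LAT2), a light chain for a wide range of neutral amino acids, was also higher with dex, but from very few reads. Its counts were 3 and 1 in the EtOH libraries and 13 and 8 in the dex libraries at 5 hours, 2 and 4 against 9 and 11 at 7 hours, and 2 and 2 against 5 and 15 at 9 hours. The dex libraries were above the EtOH libraries at each time from 3 hours onward, and overlapped with them at 1 hour. Summed over each pair and scaled by library size, the ratio of dex to EtOH was 6.33 at 5 hours (2.13 to 25.3), 3.67 at 7 hours (1.42 to 11.2) and 5.2 at 9 hours (1.74 to 20.9), where the bounds are exact 95% intervals that cover counting error only. At 11 hours it was 2.73 (0.975 to 9.39), and the gene was not called. No EtOH library had more than 6 counts, and the gene passed the filter on low counts only through 3 dex libraries, so that it was tested because it was high with dex. The edgeR adjusted p was 0.00746, 0.0451 and 0.0449 at 5, 7 and 9 hours, and 0.00775, 0.0547 and 0.0375 without a filter, whereas the filter of 10 counts in every library leaves the gene out. Leaving out 1 library moved the log2 fold change of 2.58 at 5 hours to between 1.87 and 3.62, and that of 1.85 at 7 hours to between 1.45 and 2.4. DESeq2 gave 0.128 at 5 hours and 0.286 at 9 hours, and the call was lost at 5 hours without the second EtOH or the first dex library, at 7 hours without the first EtOH or either dex library, and at 9 hours without the second dex library.

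Both SLC7A7 and SLC7A8 lie on chromosome 14. In the GENCODE annotation on GRCh38, SLC7A7 spans chr14:22773222-22829820 and SLC7A8 chr14:23125295-23183674, both on the minus strand, with 295475 bases and 25 annotated genes between them. Of these, 16 were tested. At 5 hours 4 of the 16 were called (1 higher and 3 lower), against 25.0% of all genes, at 7 hours 5 (2 higher and 3 lower) against 28.2%, at 9 hours 3 (1 higher and 2 lower) against 19.8%, and at 11 hours 0 against 9.12%. These counts are near the shares of all genes at 5, 7 and 9 hours. The median log2 fold change of the 16 was -0.17 at 5 hours. Their highest was 0.33, for C14orf119, and their lowest -1.28, for CDH24 (edgeR adjusted p = 0.000388). Both genes were named here after their values were seen.

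SLC7A5, the most counted light chain, was called at no single time point. It was at 1505 and 1564 CPM with EtOH and 1322 and 1322 with dex at 5 hours, and at 1516 and 1591 against 1300 and 1346 at 9 hours. Its dex libraries were below the EtOH libraries at 5, 9 and 11 hours and overlapped with them at 1, 3 and 7 hours, and the lowest edgeR adjusted p was 0.149, at 5 hours. Over the 6 time points in one fit of all 24 libraries the mean log2 fold change was -0.17 ± 0.04 (edgeR adjusted p = 0.00158). In that comparison 35.9% of all genes (16.9% higher and 18.9% lower) and 13 of the 30 (4 higher and 9 lower) were called. The 4 include SLC7A8, which was tested only through its dex libraries.
As a share of the level per length of the 5 light chains of SLC3A2 analysed here (SLC7A5, SLC7A6, SLC7A7, SLC7A8 and SLC7A10), SLC7A7 made up 5.66% and 5.89% in the EtOH libraries of 5 hours and 14.5% and 13.8% in the dex libraries. Over all 12 EtOH libraries the share lay between 4.92% and 6.49%, and all 10 dex libraries from 3 hours onward were above that range, the lowest at 8.20%. The share of SLC7A5 was 89.8% ± 0.191 (SD, n = 2) with EtOH and 80.8% ± 0.391 with dex at 5 hours, so that SLC7A5 remained the main light chain by this measure. The size of these shares depends on the transcripts: with each gene on its most counted transcript, SLC7A7 made up 1.12% to 1.68% in the EtOH libraries, below SLC7A6, and 2.19% to 3.78% in the 10 dex libraries from 3 hours onward. These are RNA shares, and protein on the membrane was not measured.

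**Figure D3:**
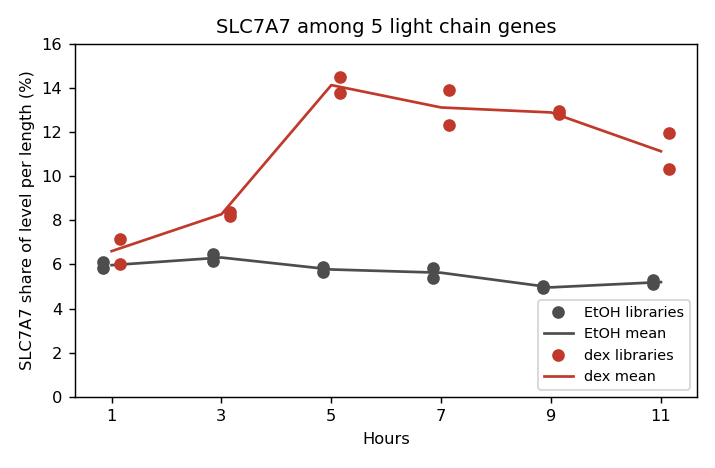
Share of SLC7A7 (percent, vertical axis from 0) in the summed level per length of 5 light chain genes, against hours of exposure. Points are single libraries and lines the mean of 2 libraries; the grey EtOH points stay between 4.92% and 6.49%, and the red dex points reach 14.5% at 5 hours.

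The heavy chain SLC3A2 was slightly lower with dex. It was at 454 and 419 CPM with EtOH and 365 and 353 with dex at 5 hours, and at 420 and 471 against 339 and 347 at 9 hours. Its log2 fold change was -0.28 ± 0.10 at 5 hours (edgeR adjusted p = 0.0405) and -0.36 ± 0.11 at 9 hours (0.0485), and it was called at neither 7 nor 11 hours. Both calls were lost on the most counted transcript (adjusted p = 0.177 and 0.115), the first also without the first EtOH or the second dex library and the second without either dex library. SLC3A1 (rBAT), the other heavy chain, was not called at any time, and its light chain SLC7A9 had at most 14 counts in any library.

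Of the other SLC7 carriers, SLC7A1 (CAT1), the main importer of arginine and lysine in many cells, was at 107 and 107 CPM with EtOH and 87.8 and 82.2 with dex at 5 hours, a log2 fold change of -0.33 ± 0.11 (edgeR adjusted p = 0.022) that was not called without the second dex library (0.179). It was not called at any other time. SLC7A6 (y+LAT2), which has the same exchange activity as SLC7A7, was called at 9 hours only, at 72.1 and 67.7 CPM with EtOH against 86.0 and 92.0 with dex, a call lost with DESeq2 (adjusted p = 0.15) and on the most counted transcript (0.14). SLC7A6OS was called at the same time, at 46.3 and 43.2 against 63.9 and 65.1 CPM, and both calls were lost without either dex library of that time. These 2 genes overlap in their exons on opposite strands, the use of strand in counting is not stated, and their reads may not be told apart. SLC7A2 (CAT2) was called at no single time, with a mean log2 fold change of 0.17 ± 0.06 over the 6 times (edgeR adjusted p = 0.0385). With the replicate number as a block it was called at 9 hours (0.38, edgeR adjusted p = 0.0341). SLC7A9 had at most 14 counts in a library and was called at no time, with log2 fold changes from -1.19 to 1.14, and SLC7A3, SLC7A4, SLC7A10, SLC7A13 and SLC7A14 were too low to test.

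**Figure D4:**
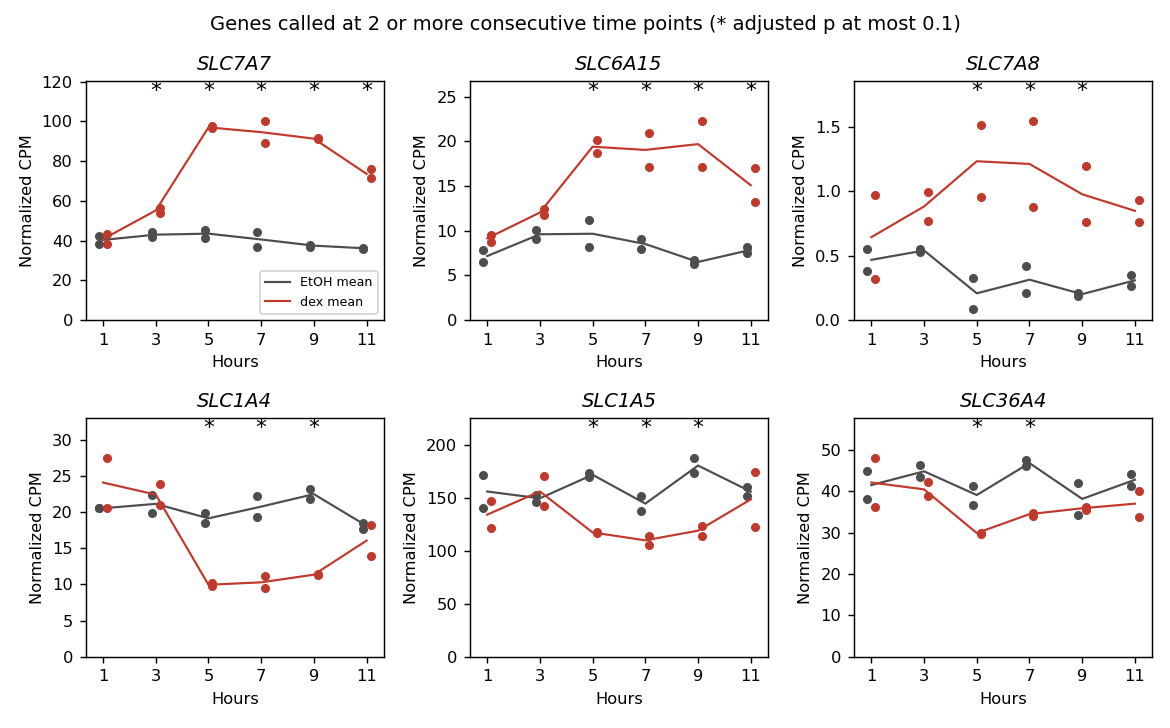
Normalized CPM (vertical axes from 0) against hours for the 6 genes called in the same direction at consecutive time points. Points are single libraries, lines the means of 2 libraries, grey EtOH and red dex, and stars mark an edgeR adjusted p of at most 0.1; at 11 hours the dex points of SLC1A5 (123 and 174 CPM) lie on either side of the EtOH points, while those of SLC7A7 lie above, at 75.8 and 71.3 CPM.

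Both neutral exchangers of the SLC1 family fell with dex between 5 and 9 hours, while the values at 11 hours rested on which dex library was used. SLC1A4 (ASCT1) exchanges alanine, serine, cysteine and threonine. It was at 19.8 and 18.4 CPM with EtOH and 9.77 and 10.1 with dex at 5 hours, 19.3 and 22.2 against 9.46 and 11.1 at 7 hours, and 21.7 and 23.2 against 11.2 and 11.5 at 9 hours. At 11 hours the values were 18.5 and 17.7 with EtOH and 13.95 and 18.2 with dex. The groups were separate from 5 to 9 hours, overlapped at 3 and 11 hours, and at 1 hour the dex libraries (20.6 and 27.5) were just above the EtOH ones (20.5 and 20.5). Its log2 fold change was -0.94 ± 0.18 at 5 hours (edgeR adjusted p = 5.57e-05), -1.02 ± 0.16 at 7 hours (4.74e-06) and -0.96 ± 0.16 at 9 hours (0.0013), calls that held under every alternative run. The value at 11 hours was -0.15 ± 0.20, and it was -0.37 (adjusted p = 0.192) without the second dex library and 0.029 without the first. Over the 6 times the response differed (edgeR adjusted p = 0.000102).
SLC1A5, whose product exchanges glutamine for other neutral amino acids, was at 170 and 174 CPM with EtOH and 118 and 117 with dex at 5 hours, 137 and 152 against 106 and 114 at 7 hours, and 173 and 188 against 114 and 124 at 9 hours. Those groups were separate at all 3 times. At 11 hours the dex libraries stood at 123 and 174 CPM, on either side of the EtOH libraries (160 and 152), with a log2 fold change of -0.05. Without the second dex library it was -0.34 and was called (edgeR adjusted p = 0.019), and without the first it was 0.18 (0.186). The log2 fold change was -0.55 ± 0.10 at 5 hours (edgeR adjusted p = 4.4e-05), -0.39 ± 0.08 at 7 hours (0.000508) and -0.58 ± 0.11 at 9 hours (0.00283). The call at 7 hours was lost without the first dex library of that time (adjusted p = 0.122), as was that at 9 hours without the first dex library of its time (0.168). Differences between time points were called for SLC1A5 as well (edgeR adjusted p = 0.0583). The third tested member, the glutamate carrier SLC1A1 (EAAT3), was called at no time, and the 4 other SLC1 genes were not tested for want of counts.

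Of 6 tested SLC38 genes, none was called at more than 1 time point. SLC38A2 was at 954 and 1023 CPM with EtOH and 814 and 755 with dex at 5 hours, with a log2 fold change of -0.33 ± 0.10 (edgeR adjusted p = 0.0152). This was lost on the most counted transcript (0.11) and without the second library of either treatment (0.159 and 0.116), and at 7 hours the libraries overlapped. SLC38A1 was not called at any time, with log2 fold changes between -0.02 and 0.22. Its mean over the 6 times was 0.09 ± 0.04 (edgeR adjusted p = 0.109), next to the threshold. Of 31 alternatives 10 called this mean, among them the replicate number as a block (0.0891). That block also called SLC38A1 at 9 hours (0.0985). SLC38A9, the arginine sensor of the lysosome, was at 25.7 and 24.1 CPM with EtOH and 23.4 and 23.5 with dex at 5 hours, and was called at no time, with log2 fold changes between -0.17 and 0.13. SLC38A7, a lysosomal exporter of glutamine, was higher at 5 hours (0.42 ± 0.17, edgeR adjusted p = 0.0854), a call lost with DESeq2 (0.327), on the most counted transcript (0.186), without a filter (0.13), in 1 fit over 24 libraries (0.123) and without the first EtOH or either dex library. SLC38A6 was lower at 7 hours (-0.36 ± 0.14, 0.071), which was not called by DESeq2 (0.298), on the most counted transcript (0.424) or in 1 fit over 24 libraries (0.128), and without the second dex library its log2 fold change was -0.16. The call was also lost without the first EtOH library. SLC38A10 was lower at 9 hours (-0.51 ± 0.15, 0.0344), a call lost without either dex library.

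**Figure D5:**
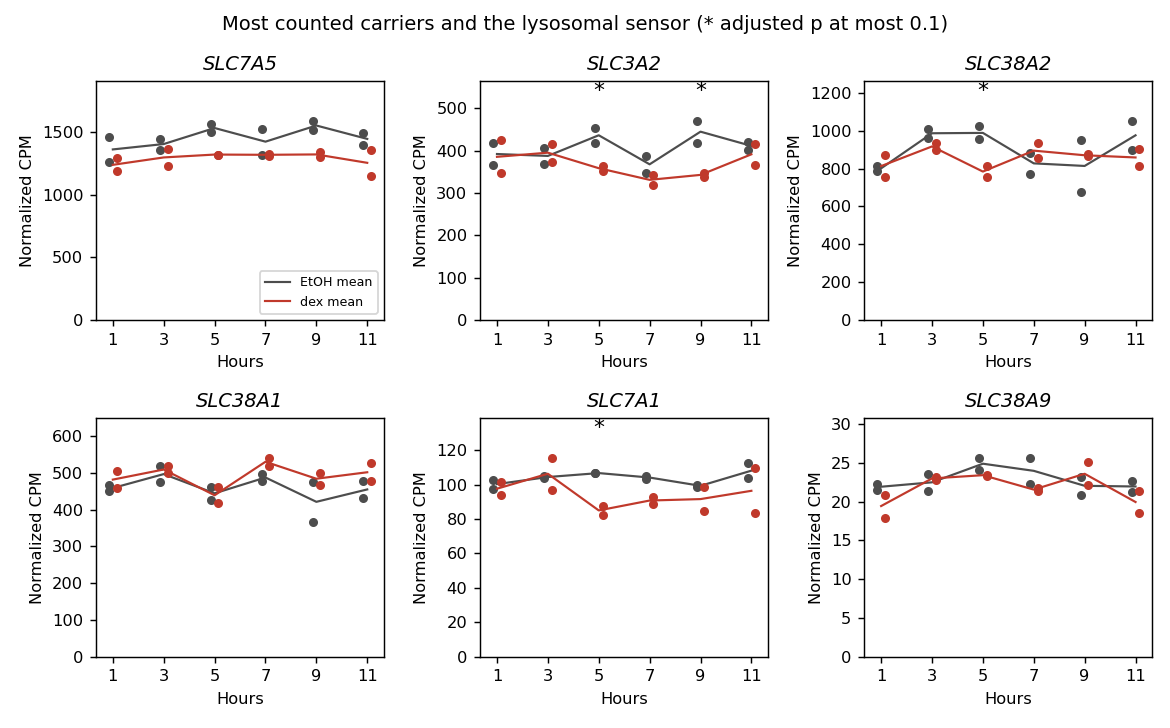
Normalized CPM (vertical axes from 0) against hours for SLC7A5, SLC3A2, SLC38A2, SLC38A1, SLC7A1 and SLC38A9. Points are single libraries, lines means of 2 libraries, grey EtOH and red dex, and stars mark an edgeR adjusted p of at most 0.1; the lines of both treatments stay close, with SLC7A5 between 1153 and 1591 CPM in all libraries.

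In the proton-coupled SLC36 family, SLC36A4 (PAT4), a carrier of proline and tryptophan, fell at 5 and 7 hours. It was at 36.8 and 41.4 CPM with EtOH and 29.8 and 30.03 with dex at 5 hours and at 47.6 and 46.0 against 34.8 and 34.1 at 7 hours, with the dex libraries below at both times. The log2 fold change was -0.39 ± 0.13 (edgeR adjusted p = 0.0262) and -0.43 ± 0.10 (0.00203). At 9 hours the groups overlapped. The call at 5 hours was lost with DESeq2 (adjusted p = 0.143) and without the second EtOH library (0.244). SLC36A1 (PAT1), which exports amino acids from the lysosome, was called at no time, with log2 fold changes from -0.21 to 0.05. In the SLC43 family of facilitated carriers, SLC43A2 (LAT4) was called at 5 hours, at 5.01 and 3.99 CPM with EtOH against 8.60 and 6.91 with dex. This call was lost with DESeq2 (adjusted p = 0.154) and without the second EtOH or the first dex library. SLC43A1 (LAT3) was not called.

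In the SLC6 family of sodium-coupled carriers, SLC6A15 was higher with dex. It encodes B0AT2, a carrier of proline and branched-chain amino acids known mainly from neurons, and lies at chr12:84859488-84913615 on the minus strand. Over the 12 EtOH libraries it lay between 6.28 and 11.2 CPM with a median of 8.06. The dex libraries were at 9.57 and 8.74 at 1 hour, 12.4 and 11.7 at 3 hours, 20.1 and 18.7 at 5 hours, 17.2 and 20.9 at 7 hours, 22.3 and 17.1 at 9 hours, and 17.0 and 13.2 at 11 hours. At every time both dex libraries were above both EtOH libraries of that time. The log2 fold change was 0.99 ± 0.18 at 5 hours (edgeR adjusted p = 3.46e-05), 1.15 ± 0.17 at 7 hours (1.52e-06), 1.59 ± 0.20 at 9 hours (0.000125) and 0.96 ± 0.22 at 11 hours (0.0196). The difference between time points was called (edgeR adjusted p = 0.0112). The most counted of its 7 transcripts, which held 30.7% of its counts, gave 0.21 at 5 hours (adjusted p = 0.743) and 0.61 at 11 hours (0.431), and the call at 11 hours was also lost without either EtOH library (0.137 and 0.248).
A further 3 SLC6 genes were each called at 1 time, all lower with dex. SLC6A9, the glycine carrier GlyT1, was at 9.25 and 8.69 CPM with EtOH and 5.23 and 4.77 with dex at 5 hours. SLC6A8, which carries creatine, was at 7.62 and 6.91 against 5.47 and 4.17 at 5 hours, and SLC6A16, whose substrate is not established, at 6.91 and 8.24 against 4.49 and 3.51 at 7 hours. The dex libraries were below the EtOH libraries in each case. The call of SLC6A8 was lost with DESeq2 (adjusted p = 0.371), on the most counted transcript (0.355), in 1 fit over 24 libraries (0.165) and without either EtOH or the second dex library, and that of SLC6A16 without the second dex library (0.116). SLC6A6 (taurine), SLC6A17 and SLC6A20 were called at no time, and other SLC6 genes that the rule takes in, among them the monoamine carriers SLC6A2, SLC6A3 and SLC6A4 and also SLC6A11, SLC6A12 and SLC6A13, were too low to test.

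Few or none of the 30 genes were called as varying over time in EtOH cells, depending on the setting. In the 12 EtOH libraries 0 of the 30 genes differed between time points in edgeR, against 3.30% of all genes, and 3 had an unadjusted p under 0.05. DESeq2 gave an adjusted p for 18 of the 30 and called 0. With no filter on low counts SLC38A2 and SLC38A10 were called (edgeR adjusted p = 0.00339 and 0.0555). Without the first EtOH library of 9 hours 4 were called, and without the second 1. The dex effect itself differed between time points for 5 of the 30 genes, against 15.4% of all genes, and for 3 without the second EtOH or the first dex library of 9 hours. The 5 were SLC7A7, SLC1A4, SLC6A15, SLC1A5 and SLC7A6OS.

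Genes that surround the carriers in amino acid metabolism were read from lists. Of 21 tested genes of the amino acid response that ATF4 drives, 3 were higher and 7 lower at 5 hours, with a median log2 fold change of -0.17, against 12.4% and 12.6% of all genes. The 3 that rose at 5 hours were CEBPB, DDIT4 and TRIB3. CEBPB, a transcription factor, was at 41.0 and 40.9 CPM with EtOH and 124 and 149 with dex at 5 hours and was called at all 6 times, starting at a log2 fold change of 1.10 ± 0.12 at 1 hour. DDIT4, an inhibitor of mTORC1 signalling, was at 106 and 85.0 against 234 and 212 CPM at 5 hours and was called from 3 to 11 hours. TRIB3, a pseudokinase, was at 24.5 and 29.6 against 43.4 and 49.0 CPM at 5 hours and was called from 3 to 7 hours. The 7 that fell at 5 hours were ASNS, PHGDH, PSAT1, PSPH, SHMT2, MTHFD2 and CEBPG. ASNS makes asparagine, PHGDH, PSAT1 and PSPH make serine, SHMT2 and MTHFD2 pass on carbon units from it, and CEBPG is a transcription factor. Their log2 fold changes ran from -0.29 (SHMT2) to -0.73 (PHGDH), and the fall of PHGDH, PSAT1 and PSPH was called at 5, 7 and 9 hours. These 7 genes were named after their values were seen. ATF4 itself was called at no time, with a mean log2 fold change of -0.10 ± 0.05 over the 6 times (edgeR adjusted p = 0.1004). ATF3, DDIT3 and CHAC1, also on the list, were called at no time. The part of ATF4 in the changes on this list was not tested. At 3 hours 3 of the 21 genes were higher and 0 lower, and at 11 hours 2 and 0. At 7 hours 4 were higher and 5 lower, and at 9 hours 2 and 4. The shares of all genes called higher and lower were 8.42% and 5.65% at 3 hours and 5.80% and 3.33% at 11 hours. They were 14.7% and 13.5% at 7 hours, and 10.8% and 8.96% at 9 hours.

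Of 20 cytosolic aminoacyl-tRNA synthetase genes, which charge tRNA with amino acids, 0 were higher and 4 lower at 5 hours, with a median log2 fold change of -0.09, against 12.4% and 12.6% of all genes. TARS, for threonine, was at 196 and 183 CPM with EtOH and 149 and 151 with dex at 5 hours (-0.34 ± 0.10, edgeR adjusted p = 0.0121). At 7 hours 2 of the 20 were higher and 1 lower, against 14.7% and 13.5% of all genes, and at 11 hours 0 were called, against 9.12%. Among 23 genes of amino acid sensing at the lysosome, 3 were higher at 5 hours, 3 at 7 hours and 5 at 9 hours, against 12.4%, 14.7% and 10.8% of all genes, so the counts at 5 and 7 hours are near those shares. None of the 23 was lower in edgeR at these times, against 12.6%, 13.5% and 8.96% of all genes. TFEB, a transcription factor for lysosomal genes, was at 2.18 and 1.68 CPM with EtOH and 5.12 and 5.36 with dex at 5 hours (1.45 ± 0.31, edgeR adjusted p = 0.000315). RRAGA, one of the Rag GTPases, was at 107 and 94.0 against 121 and 126 CPM at that time (0.30 ± 0.11, 0.041), and FNIP2, a partner of folliculin, was called at 3, 9 and 11 hours.

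Proteins that act on carriers gave 4 genes higher and 1 lower of 9 tested at 5 hours, against 12.4% and 12.6% of all genes. At 1 hour 1 was higher and 0 lower (0.639% and 0.417% of all genes), and at 3 hours 2 and 1 (8.42% and 5.65%). At 7 hours 4 were higher and 0 lower (14.7% and 13.5% of all genes), at 9 hours 3 and 1 (10.8% and 8.96%), and at 11 hours 3 and 0 (5.80% and 3.33%). The kinase SGK1, known to raise the activity of several carriers and itself a target of GCs, was at 87.5 and 96.0 CPM with EtOH and 209 and 221 with dex at 5 hours, and was called at all 6 times. NEDD4, of a family of ubiquitin ligases that mark membrane carriers for removal, was at 267 and 279 against 741 and 746 CPM at 5 hours, with log2 fold changes from 0.77 ± 0.10 at 3 hours to 1.73 ± 0.12 at 9 hours. SGK2, a related kinase, was called at 5 and 7 hours (0.43 ± 0.18 and 0.52 ± 0.15). SGK3, another kinase of this kind, went the other way and was called lower at 1 time. Its mean log2 fold change over the 6 times was -0.33 ± 0.08 (edgeR adjusted p = 0.00297), and it was named after its values were seen. Of the other tested genes on this list, ARL6IP5 was called higher at 3 times and lower at 1. NEDD4L was called higher at 1 time, BSG lower at 1 time, and PDPK1 and CLTRN at no time. Of 12 tested amino acid carriers of other families, 1 was higher at 5 hours, 3 were higher and 2 lower at 7 hours, and 3 were higher and 1 lower at 9 hours. The shares of all genes called higher and lower were 12.4% and 12.6% at 5 hours, 14.7% and 13.5% at 7 hours, and 10.8% and 8.96% at 9 hours. SLC17A5, a lysosomal exporter of sialic acid and acidic amino acids, was higher from 5 to 9 hours (0.41, 0.35 and 0.53). SLC25A18, a mitochondrial glutamate carrier, was higher at 3, 7 and 9 hours, and SLC25A29, a mitochondrial carrier of basic amino acids, was lower at 7 and 9 hours (-1.003 ± 0.17 and -0.59 ± 0.17).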

How the data were processed

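The deposited values are raw counts per transcript, not divided by depth or length. To make them the authors aligned 50-base single-end reads, from libraries that keep the strand, to the GENCODE transcript set (Bowtie) and tallied the alignments with samtools. SAMtools and the build hg19 are also named in the submitters' processing notes. The placing of reads with several matching transcripts, and the use of strand, are not given in the sources used here. The methods state triplicates, while the labels give 2 replicates.

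Of 119207 transcripts, 110262 were joined to GENCODE release 29 genes by identifier without version and hold 94.1% of the counts. The remaining 8945 were not used, so a gene's sum covers its matched transcripts only. Counts were summed per gene and tested with edgeR 4.0.16 (R 4.3.3, limma 3.58.1): TMM, filterByExpr over the 12 groups, the quasi-likelihood F-test with robust estimation, each time point by itself without a block, Benjamini-Hochberg adjustment over all genes tested and a threshold of 0.1. The SE is the log2 fold change divided by the root of F. The mean effect and the difference between time points used 1 fit of 24 libraries, and the EtOH time course used 12. CPM values use the TMM-scaled library size, and levels per length are counts over transcript length, summed over transcripts and scaled to a fixed sum as in TPM. With 2 libraries a group, p-values measure the spread between these libraries, which may be technical. Counts of 15340 genes were also simulated with the library sizes of 5 hours, gene means over all 24 libraries and the same spread for every gene. Changes were placed only in genes above a set mean count, which SLC7A8 did not reach, and changes under 2-fold were not simulated. The test recovered 88% of 2-fold and 100% of 4-fold changes, and 10.5% of 210 calls were false. In like simulations the false share was 13.8% for the mean effect and 13.4% for the difference between time points.

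Alternatives were DESeq2 1.42.0, its size factors in edgeR, no filter, 10 counts in every library, a threshold of 0.05, the replicate number as a block, the most counted transcript, 1 fit over 24 libraries and leaving out each library. The genes, the lists and the tests were chosen with earlier results of these data known. Named genes are those called in the same direction at consecutive time points with separate libraries, a set of carriers named whatever their values, genes called at 1 time, and up to 3 genes a list with the largest mean change among those called at consecutive times. Tables were made with Python 3.11.15 and pandas 2.3.3, and figures with matplotlib 3.10.9. The promoter windows are from RefSeq. Some genes are not reported here by name.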

Additional observations from a re-analysis of the deposited data

Results flagged for a closer look

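For 4 of the 13 genes that were called at consecutive times or named whatever their values, the dex effect differed between time points, by the joint edgeR test of the 5 later differences against that at 1 hour, against 15.4% of all genes. Of these 13 genes 6 were chosen by their calls at consecutive times, so the count is a description. The adjusted p was 1.26e-06 for SLC7A7, 0.000102 for SLC1A4, 0.0112 for SLC6A15 and 0.0583 for SLC1A5. SLC7A7 and SLC6A15 had log2 fold changes of 0.01 and 0.35 at 1 hour and of 1.3 and 1.59 at 9 hours. SLC1A4 and SLC1A5 had -0.96 and -0.58 at 9 hours and -0.15 and -0.05 at 11 hours, where the libraries overlapped. Without the second dex library of 11 hours, which stood apart from the first, these were -0.37 and -0.34. Without the first they were 0.029 and 0.18, so their sign depended on the library left out. The joint test gave an adjusted p of 0.049 for SLC7A6OS, which was called at 9 hours only. The contrast of 11 hours against 9 hours was not tested by itself.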

How the results depend on the processing

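For the 13 genes that were called at consecutive times or named whatever their values, 682 values were recomputed: 639 kept their direction and side of the threshold, 31 lost the call, 11 gained one, and 1 changed sign, the mean log2 fold change of SLC38A9, which was -0.07 and became 0.015 on the most counted transcript (not called in either). The number of genes called moved by more than 1.5 times as follows, and the cause was not tested. Not all 30 had an adjusted p: 27 did on the most counted transcript, and 27 at 3 hours and 28 at 5 hours with DESeq2. At 3 hours 1 became 0 with DESeq2, with the most counted transcript and with the replicate block. At 5 hours 13 (5 higher and 8 lower) became 8 with DESeq2 (2 and 6) and 7 with the most counted transcript (2 and 5). The 5 higher genes of 9 hours became 3 in both settings. The 4 higher genes of the mean effect became 2 on the most counted transcript. On the most counted transcript, the count at 11 hours became 1 and that of genes whose effect differed between times became 3. Without a filter 2 of the 30 genes, SLC38A2 and SLC38A10, were called in the EtOH time course. Leaving out 1 library gave 0 to 1 calls at 1 hour, 0 to 1 at 3 hours, 8 to 10 at 5 hours, 5 to 10 at 7 hours, 4 to 14 at 9 hours, 1 to 8 at 11 hours, 13 to 15 for the mean effect, 3 to 7 for the difference between time points and 0 to 4 for the EtOH time course. Where this leaves 1 library in a group, that library is assumed to vary like the others.

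The correlation of same-numbered deviations over all genes was low, from -0.068 to 0.157 over the 6 time points, which cannot exclude that replicate numbers pair the samples. It was highest at 1 hour, where 0 of the 30 genes were called with or without the replicate number as a block. At 9 hours it was 0.111, and 11 genes were called with the block against 9 without. With the replicate block 0 genes were called at 3 hours, and the SLC7A7 value there had an edgeR adjusted p of 0.108. Besides this loss, the block added 4 calls among the 30 genes: SLC6A16 at 11 hours (adjusted p = 0.0977), SLC7A2 (0.0341) and SLC38A1 (0.0985) at 9 hours, and the mean effect of SLC38A1 (0.0891). The other counts stayed within 1.5 times.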
